A study of Mus musculus with 8 samples.

Results

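The genes described here are 43 genes of the sarcomere and its Z-disc, the repeating contractile unit of heart muscle and the plate that borders it. They were chosen by name and not by their measured values, though earlier results of these data were known at the time. Of the 43, 41 had at least 1 probe set annotated to that gene alone among the 45101 probe sets of the array, and 39 passed a filter on dim probe sets that left 27022. Trim55 and Xirp2 had no such probe set, so their expression is not analysed here. The brightest probe set stood for each gene, and dimmer ones showed whether the signs agreed. By textbook role the genes were put into 4 classes, with 12 in the thick filament and its M-band, 12 in the thin filament, 15 at the Z-disc and 4 in sarcomere assembly and turnover. The tested members numbered 11, 11, 14 and 3 in these classes.

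Expression was measured on 8 arrays of mouse atrioventricular canal, the segment between atria and ventricles whose cushions form the valves. The 4 mutant samples came from Gata4 flox/flox; T2Cre+ animals and the 4 control samples from Gata4 flox/flox animals, all on a mixed C57BL6/129 background. Both groups therefore carried 2 floxed Gata4 alleles. T2Cre is named for the mutants, and the sources used here do not state that the controls lacked it. T2Cre drives Cre from the Tie2 promoter, so Gata4 was deleted in endothelium and in the cushion cells that derive from it, not in the muscle wall. Each sample pooled 10 microdissected canals, and the sources used here give no age. Separate pools are the replicates, so p-values measure the spread between pools.

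Muscle contracts when myosin heads of the thick filament pull on actin of the thin filament. Calcium binding to troponin moves tropomyosin aside and exposes actin, while titin spans from Z-disc to M-band and keeps the filaments in register. At the Z-disc, alpha-actinin crosslinks the thin filaments of neighbouring sarcomeres, and many LIM and PDZ proteins dock there. In the embryonic heart several of these proteins exist as paired isoforms, such as slow skeletal and cardiac troponin I or skeletal and cardiac actin, and the balance shifts as the heart matures. Chaperones and methyltransferases fold and assemble myosin, and ubiquitin ligases remove worn parts.

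Controls 2 and 3 stood apart from the other arrays. Probe sets for bacterial RNAs, a measure of background, had medians of 4.0 to 26.0 on the mutant arrays, against 158 and 135 on controls 2 and 3 and 39.3 and 19.4 on controls 1 and 4. The design text reports that 2 noisy controls were excluded without saying which, and the table holds 4, so all were kept and weighted by their noise. The array weights were 0.302 and 0.350 for controls 2 and 3 and between 0.867 and 2.80 for the other 6 arrays. The 3 prime to 5 prime log2 ratio of Actb, a measure of RNA integrity, was 1.31 to 1.51 on mutant arrays and 1.14 to 1.40 on control arrays. That of Gapdh leaned the other way, at 0.31 to 0.42 on mutant arrays and 0.36 to 0.48 on control arrays. Over all 27022 probe sets, 7 were higher and 5 lower in the mutants at an adjusted p under 0.05, which is 0.0259% and 0.0185%. The median change over all of them was 0.03 on the log2 scale. Gata4 had log2 signals of 11.10, 11.28, 11.18 and 10.93 in mutants 1 to 4, against 11.15, 11.07, 11.42 and 11.38 in controls 1 to 4, with a change of -0.15 (SE 0.11, limma adjusted p = 0.585). Muscle of the canal, which T2Cre does not target, also makes Gata4, so that this overlap in whole canals does not check the labels.

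Most sarcomere genes had higher signals in the mutant canals, by small amounts, and 0 passed the test. Of the 39 tested members, 34 had positive and 5 negative log2 changes, against 53.8% positive among all tested probe sets. The median change of the members was 0.11, and the range was -0.33 to 0.73. With the authors' scaling, under which the median of all probe sets was -0.10, 35 of 39 were positive. With arrays centred on their median, which moved the median of all probe sets to 1.13, 35 of 39 lay above that shift, by a median of 0.60, while probe sets as bright as a mean log2 signal of at least 12 lay above it by 0.57. At an adjusted p under 0.05, 0 members were higher and 0 lower in limma, and the smallest adjusted p was 0.172. At an unadjusted p under 0.05 there were 14 members with positive changes, against 7.31% of all tested probe sets, and 1 with a negative change, against 5.33%. That count rested on controls 1 and 4. Without control 1 it was 6 of 39 positive, against 17.3% of all probe sets, and without control 4 it was 7 of 39, against 16.6%, so that the members were then near the share of all probe sets. The mutant arrays all lay above the control arrays for 8 members, against 4.44% of all tested probe sets, and all below for 0 members, against 3.19%. In whole canals, a change in the share of cells of a type and a change in RNA per cell cannot be told apart.

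Leaving out controls 2 and 3, with array weights, gave 34 of 39 positive changes, against 51.2% of all tested probe sets, and a median of 0.11. The number at an unadjusted p under 0.05 was then 9 higher and 0 lower, against 4.07% and 2.33% of all probe sets. Many members are bright, and their changes can be set beside those of equally bright probe sets. The 22 members with a mean log2 signal of at least 12 had a median change of 0.11, with 21 positive, while the 1912 tested probe sets in that range had a median of -0.00 with quartiles of -0.06 and 0.06. With the mean of the Actb and Gapdh ratios as a covariate, the members' median was 0.10, with 11 higher and 1 lower at an unadjusted p under 0.05, against 5.65% and 4.80% of all probe sets.

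**Figure D1:**
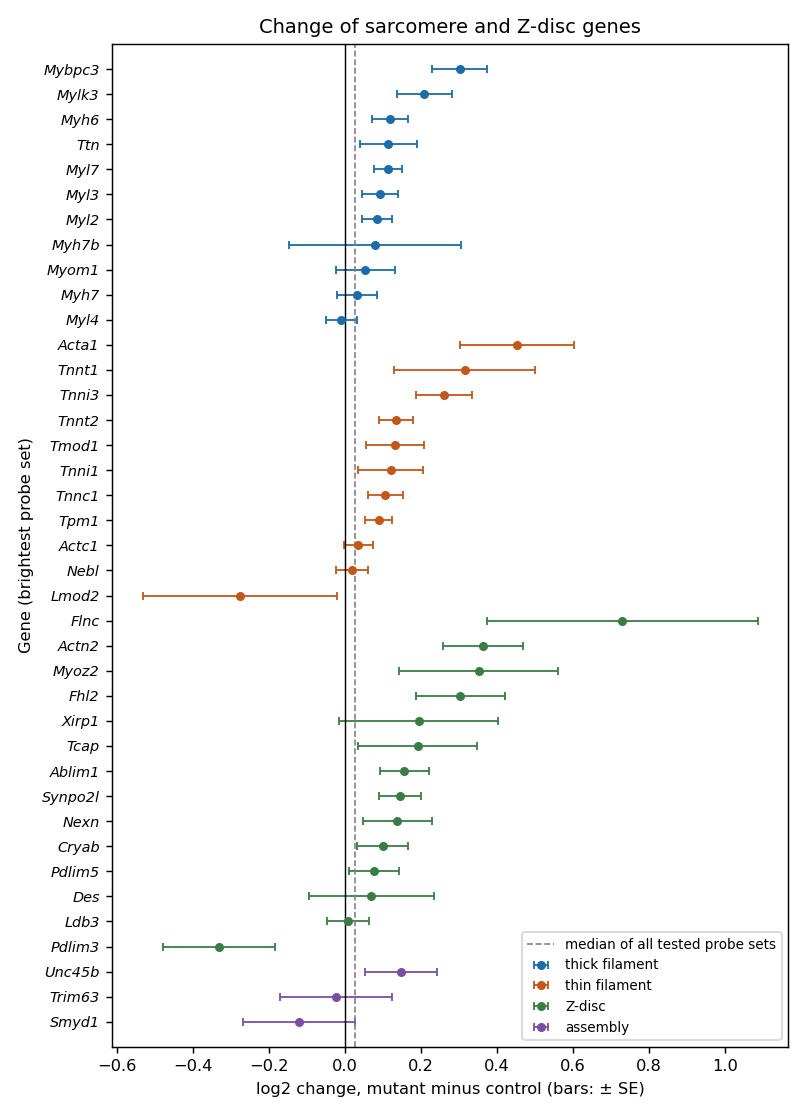
Log2 change, mutant minus control, of the brightest probe set of each of the 39 tested members, with bars of 1 SE from limma. Colours give the class, the solid line marks 0 and the dashed line the median of all tested probe sets, 0.03. Most points lie to the right of 0, and Flnc, Myh7b, Lmod2 and Myoz2 have wide bars.

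Promoters of several members hold short motifs of muscle transcription factors. Sequences were taken from RefSeq (GRCm38.p6) as 250 bases before to 50 bases after each annotated start, and 36 of the 43 members had 53 such promoters. Both strands were searched for a GATA motif (AGATAA and also TGATAA), for CATTCC (the MCAT motif of TEAD factors), for TATAAA, and by name for the CArG box of serum response factor and for the MEF2 site. A CArG box was found in 18.9% of member promoters and in 1.63% of all 32851 promoters. The MEF2 site was found in 13.2% against 3.19%, the MCAT motif in 34.0% against 14.7%, the GATA motif in 28.3% against 18.6% and TATAAA in 20.8% against 13.6%. These are matches of letters and not shown to be bound. The 4 promoters printed here were picked after values and matches were seen, since they show these motifs in the member with the smallest p (Mybpc3), an atrial gene whose groups separated (Myl7) and the actin pair compared later. They are written 5′ to 3′ on the strand of the gene, with capitals marking the motif matches. The Mybpc3 promoter (chr2:91117894-91118193, plus strand) holds a MEF2 site and a GATA motif. The Myl7 promoter (chr11:5898733-5899032, minus strand) holds an MCAT motif, a CArG box and a GATA motif. The Acta1 promoter (chr8:123894726-123895025, minus strand) holds a CArG box, an MCAT motif and TATAAA. The Actc1 promoter (chr2:114052826-114053125, minus strand) holds a CArG box and TATAAA.
Mybpc3: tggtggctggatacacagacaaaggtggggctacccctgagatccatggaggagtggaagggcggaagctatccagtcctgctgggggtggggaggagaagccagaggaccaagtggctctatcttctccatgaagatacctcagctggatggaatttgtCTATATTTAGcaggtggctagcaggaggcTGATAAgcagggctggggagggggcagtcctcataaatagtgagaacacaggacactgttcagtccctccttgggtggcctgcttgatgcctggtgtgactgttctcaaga
Myl7: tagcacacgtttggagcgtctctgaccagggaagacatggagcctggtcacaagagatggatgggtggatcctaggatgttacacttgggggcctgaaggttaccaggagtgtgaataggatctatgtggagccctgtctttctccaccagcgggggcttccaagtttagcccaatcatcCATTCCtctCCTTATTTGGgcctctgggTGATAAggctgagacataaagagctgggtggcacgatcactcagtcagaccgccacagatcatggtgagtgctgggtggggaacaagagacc
Acta1: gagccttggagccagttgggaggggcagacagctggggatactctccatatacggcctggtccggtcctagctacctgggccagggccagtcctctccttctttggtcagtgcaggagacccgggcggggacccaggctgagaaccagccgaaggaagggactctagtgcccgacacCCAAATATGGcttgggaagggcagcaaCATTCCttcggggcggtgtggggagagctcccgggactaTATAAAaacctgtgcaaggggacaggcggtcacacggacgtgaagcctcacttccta
Actc1: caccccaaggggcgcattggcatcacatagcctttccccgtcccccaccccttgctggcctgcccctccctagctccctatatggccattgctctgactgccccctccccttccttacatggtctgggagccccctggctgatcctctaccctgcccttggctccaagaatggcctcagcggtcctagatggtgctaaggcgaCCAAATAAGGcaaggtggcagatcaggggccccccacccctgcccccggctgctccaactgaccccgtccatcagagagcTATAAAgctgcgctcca

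Thick filament genes had 10 of 11 positive changes, against 53.8% of all tested probe sets. Their median was 0.09, with 0 members past the threshold. At an unadjusted p under 0.05 there were 5 positive and 0 negative, against 7.31% and 5.33% of all tested probe sets. Mybpc3, cardiac myosin-binding protein C, which docks on myosin and tunes cross-bridge cycling, had the smallest p of all members. Its log2 signals were 12.44, 12.42, 12.50 and 12.35 in mutants 1 to 4, against 12.07, 12.11, 12.37 and 12.11 in controls 1 to 4. The groups overlapped through control 3, which lay above mutant 4. The log2 change was 0.30 (SE 0.07, adjusted p = 0.172 in limma), a 1.23-fold difference. Without control 3 it was 0.34 with a limma adjusted p of 0.0386, and 89 of all probe sets were then higher past the threshold, against 7 with all arrays. Without controls 2 and 3 it was 0.33, and no member passed. Without control 1 it was 0.19.

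Myosin light chains showed smaller shifts, with replicates that were tight after quantile normalization. That step gives every array the same set of values, which can narrow the spread of the brightest probe sets. Myl7, the regulatory light chain of atrial muscle, measured 14.17, 14.16, 14.22 and 14.21 in mutants 1 to 4, against 14.10, 13.99, 14.08 and 14.09 in controls 1 to 4. All 4 mutant arrays lay above all 4 controls, with a change of 0.11 (SE 0.04, limma adjusted p = 0.278). For Myl2, the regulatory light chain of ventricular muscle, the values were 14.40, 14.38, 14.28 and 14.36 in the mutants, against 14.26, 14.23, 14.25 and 14.26 in the controls. The groups again did not overlap, and the change was 0.08 (SE 0.04, limma adjusted p = 0.392). With the authors' scaling the change of Myl7 was 0.16 (limma unadjusted p = 0.0370, against 0.00726 with quantile normalization). That of Myl2 was then 0.12 (limma unadjusted p = 0.139, against 0.0481). Myl4, the essential light chain of atrial and embryonic muscle, was at 14.17, 14.25, 14.16 and 14.09 in the mutants, against 14.16, 14.11, 14.15 and 14.17 in the controls, fully interleaved. Its change was -0.01 (SE 0.04), the only negative one of the class.

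Mylk3, the cardiac kinase that phosphorylates the regulatory light chain, separated the groups as well. It had 12.60, 12.45, 12.41 and 12.59 in mutants 1 to 4, against 12.32, 12.36, 12.32 and 12.24 in controls 1 to 4. The change was 0.21 (SE 0.07, limma adjusted p = 0.290). The cardiac myosin heavy chains had smaller changes. Myh6, the faster alpha chain of atrial muscle, had 13.83, 13.75, 13.75 and 13.75 in the mutants, against 13.66, 13.73, 13.77 and 13.54 in the controls. Control 3 reached into the mutant range, and the change was 0.12 (SE 0.05, limma adjusted p = 0.338). Myh7, the slower beta chain of embryonic ventricle, had 13.65, 13.57, 13.59 and 13.56 in the mutants, against 13.67, 13.45, 13.51 and 13.45 in the controls. Control 1 was the highest of the 8 arrays, and the change was 0.03 (SE 0.05). Another 2 probe sets that match both heavy chains had changes of 0.10 (SE 0.05) and -0.00 (SE 0.09), and neither can be given to 1 gene.

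Ttn, the giant spring protein that reaches the M-band, had 13.53, 13.43, 13.35 and 13.58 in mutants 1 to 4, against 13.37, 13.66, 13.43 and 13.18 in controls 1 to 4. The highest and the lowest array were both controls, and the change was 0.11 (SE 0.08). The remaining tested thick filament genes were the ventricular light chain Myl3, the M-band protein Myom1 and the minor heavy chain Myh7b, with changes of 0.09, 0.05 and 0.08. Myom2, an M-band protein of mature muscle, was above background on 1 mutant and 1 control array at its brightest probe set and did not pass the filter. A dimmer Myom2 probe set, also removed by the filter, was above background on 4 mutant and 0 control arrays, with log2 signals of 6.45, 6.496, 6.28 and 6.51 in mutants 1 to 4, against 5.74, 5.03, 5.75 and 5.97 in controls 1 to 4. The other 2 Myom2 probe sets were above background on 0 mutant arrays. The background limit was set on each array, at deposited signals of 21.4 to 65.4 on mutant and 51.1 to 316 on control arrays. A dim signal of the same size can therefore pass on a mutant array and not on a control array.

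Thin filament genes also had 10 of 11 positive changes, against 53.8% of all tested probe sets. Their median was 0.12, with 0 past the threshold. The count at an unadjusted p under 0.05 was 5 positive and 0 negative, against 7.31% and 5.33% of all tested probe sets. Acta1, skeletal alpha-actin, which the embryonic heart also makes, had the largest change of the class. It measured 10.65, 10.71, 10.24 and 10.66 in mutants 1 to 4, against 10.16, 9.98, 9.80 and 10.02 in controls 1 to 4. The groups did not overlap, although mutant 3 lay close to control 1. The change was 0.45 (SE 0.15, limma adjusted p = 0.281), a 1.37-fold difference, and 0.44 without controls 2 and 3. Actc1, the cardiac alpha-actin, was nearly level, with 14.05, 14.06, 13.99 and 13.99 in the mutants, against 13.98, 13.97, 13.99 and 13.95 in the controls. Its change was 0.04 (SE 0.04).

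Among the troponins, Tnni3, the cardiac inhibitory subunit, had the smallest p. Its values were 12.02, 11.98, 12.02 and 12.04 in mutants 1 to 4, against 11.73, 11.73, 12.02 and 11.71 in controls 1 to 4. The mutants were closely grouped, and control 3 alone reached their level. The change was 0.26 (SE 0.07, limma adjusted p = 0.240). Tnni1, the slow skeletal inhibitory subunit that precedes it in the embryonic heart, had 12.12, 12.45, 12.20 and 12.13 in the mutants, against 12.01, 11.85, 12.15 and 12.22 in the controls. The groups overlapped, with a change of 0.12 (SE 0.09). Tnnt2, the cardiac subunit that anchors troponin to tropomyosin, had 13.99, 13.96, 13.93 and 13.91 in the mutants, against 13.73, 13.92, 13.88 and 13.86 in the controls. Control 1 was the lowest and control 2 touched the mutant range, with a change of 0.13 (SE 0.04, limma adjusted p = 0.283).

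Tpm1, alpha-tropomyosin, which lies along actin and is also made outside muscle, separated the groups narrowly. It had 14.23, 14.27, 14.21 and 14.22 in mutants 1 to 4, against 14.13, 14.11, 14.12 and 14.15 in controls 1 to 4, and the change was 0.09 (SE 0.04, limma adjusted p = 0.340). With the authors' scaling the change of Tpm1 was 0.13 (limma unadjusted p = 0.0928, against 0.0228 with quantile normalization). Lmod2, leiomodin, a nucleator that lengthens thin filaments, had the negative change of the class. Its values scattered, with 9.80, 9.70, 9.61 and 8.97 in the mutants, against 10.12, 8.56, 9.71 and 9.50 in the controls. Control 1 was highest and control 2 lowest, so that the change of -0.28 (SE 0.26) lay close to its own error. Without control 1 it was 0.13, and without control 4 it was 0.02.
The other tested members of the class were the calcium-binding troponin subunit Tnnc1 (0.11), the slow skeletal troponin T Tnnt1 (0.31, and 0.15 without controls 2 and 3), the pointed-end cap Tmod1 (0.13) and nebulette, Nebl (0.02). Nebulin, Neb, a ruler of skeletal thin filaments, was above background on 2 mutant arrays and 1 control array and did not pass the filter.

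Ratios of isoform pairs within an array do not depend on how arrays are scaled by a constant factor. The ratios here came from quantile normalized signals, which is not such a scaling, so they can depend on it. For 5 pairs the log2 ratio of the brightest probe sets was compared between groups by a two-sided exact permutation test, whose smallest p is 0.0286 with 4 arrays against 4. The ratios compare groups and not the amounts of the isoforms, since probe sets differ in how strongly they bind. For Acta1 to Actc1 the log2 ratio was -3.40, -3.35, -3.75 and -3.32 in mutants 1 to 4, against -3.82, -3.98, -4.19 and -3.93 in controls 1 to 4. It was higher in 4 of 4 mutant arrays than in any control. The difference was 0.53 (exact permutation p = 0.0286, adjusted p = 0.143 over the 5 pairs), with means of -3.45 ± 0.20 in the mutants and -3.98 ± 0.15 in the controls (SD, n = 4 each), so it did not pass the correction.

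The essential light chain pair Myl4 to Myl3 had 0.21, 0.31, 0.20 and 0.25 in mutants 1 to 4, against 0.32, 0.33, 0.26 and 0.39 in controls 1 to 4. The ranges overlapped, and the difference of -0.08 had an exact permutation p of 0.0571 (adjusted p = 0.143). Cardiac to slow skeletal troponin I, Tnni3 to Tnni1, differed by 0.05 (exact permutation p = 0.629, adjusted p = 0.857). The heavy chains, Myh6 to Myh7, differed by 0.02 (exact permutation p = 0.886, adjusted p = 0.886), and the regulatory light chains, Myl7 to Myl2, by 0.02 (exact permutation p = 0.686, adjusted p = 0.857). In these last 3 pairs the spread between arrays, with SDs from 0.01 to 0.18, was of the same order as the differences or larger.

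Z-disc genes had 13 of 14 positive changes, against 53.8% of all tested probe sets. They had the highest class median, 0.15, and 0 past the threshold. At an unadjusted p under 0.05 there were 4 positive and 1 negative, against 7.31% and 5.33% of all tested probe sets. Actn2, alpha-actinin, the crosslinker of the Z-disc, measured 11.47, 11.70, 11.34 and 11.31 in mutants 1 to 4, against 11.12, 10.93, 11.10 and 10.89 in controls 1 to 4. Every mutant array lay above every control. The change was 0.36 (SE 0.11, limma adjusted p = 0.244), a 1.29-fold difference, and 0.40 without controls 2 and 3. Fhl2, a LIM protein that binds titin and also acts in transcription, had 10.87, 11.06, 10.77 and 10.66 in the mutants, against 10.40, 10.42, 10.58 and 10.60 in the controls. Here too the groups did not overlap, with a change of 0.30 (SE 0.12, limma adjusted p = 0.334).

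Flnc, filamin C, which links the Z-disc to the membrane, had the largest change of all members, and it rested on 2 arrays. Its values were 8.86, 9.14, 9.12 and 8.97 in mutants 1 to 4, against 8.81, 5.86, 7.19 and 8.80 in controls 1 to 4. Controls 2 and 3, the arrays with raised background, were far below the others, and the probe set was above background on 3 of 4 controls. The change was 0.73 (SE 0.36, limma adjusted p = 0.405) with all arrays and 0.26 without controls 2 and 3. It was 1.94 without control 1 (adjusted p = 0.0166) and 1.84 without control 4 (adjusted p = 0.0235). The dimmer Flnc probe set had a change of -0.14.

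Synpo2l, an actin-associated protein of the Z-disc, had 13.12, 12.96, 13.04 and 13.05 in mutants 1 to 4, against 12.93, 12.96, 12.99 and 12.81 in controls 1 to 4. The change was 0.15 (SE 0.06, limma adjusted p = 0.334), and mutant 2 lay among the controls. Ablim1, an actin-binding LIM protein found in many tissues, had 13.06, 12.76, 12.998 and 12.94 in the mutants, against 12.82, 12.84, 12.82 and 12.76 in the controls. Mutant 2 was again at the control level, and the change was 0.16 (SE 0.06, limma adjusted p = 0.353).

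Pdlim3, a PDZ and LIM protein that binds alpha-actinin, was the only member with an unadjusted p under 0.05 and a negative change. It had 9.72, 10.15, 9.92 and 9.75 in mutants 1 to 4, against 10.40, 10.02, 10.08 and 9.97 in controls 1 to 4. Mutant 2 lay within the control range and control 1 was the highest array. The change was -0.33 (SE 0.15, limma adjusted p = 0.372), and with arrays centred on their median it lay 0.08 above the median of all probe sets. Des, the intermediate filament that ties Z-discs together, had 9.53, 10.13, 9.64 and 9.69 in the mutants, against 9.62, 9.16, 10.04 and 9.65 in the controls. The groups interleaved, with a change of 0.07 (SE 0.17). Tcap, telethonin, which caps titin at the Z-disc, had 9.88, 9.95, 9.68 and 9.59 in the mutants, against 9.62, 9.53, 9.09 and 9.56 in the controls. Its change was 0.19 (SE 0.16), and control 3 was the lowest array.
The other tested Z-disc genes were the calcineurin-binding Myoz2 (0.35, SE 0.21), the actin-binding Xirp1 (0.19, SE 0.21) and Nexn (0.14), the small heat shock protein Cryab (0.10), and the PDZ and LIM proteins Pdlim5 (0.08) and Ldb3 (0.01). The change of Xirp1 was 0.43 without controls 2 and 3.

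Assembly genes had 1 of 3 positive changes and a median of -0.02, which was 0.09 with the authors' scaling and 0.50 above the shift of all probe sets with arrays centred on their median. With 3 tested genes, no difference between classes was tested. Unc45b, the chaperone that folds muscle myosin, had 11.24, 11.37, 11.24 and 11.21 in mutants 1 to 4, against 11.07, 10.99, 10.91 and 11.26 in controls 1 to 4. Control 4 lay within the mutant range, and the change was 0.15 (SE 0.09, limma adjusted p = 0.522). Smyd1, a muscle methyltransferase needed for myosin assembly, had 10.07, 9.98, 9.89 and 10.14 in the mutants, against 9.98, 10.33, 10.81 and 10.05 in the controls. Controls 2 and 3 were the highest arrays. The change was -0.12 (SE 0.15) with all arrays and 0.00 without controls 2 and 3. Trim63, a ubiquitin ligase that marks sarcomere proteins for degradation, had a change of -0.02 (SE 0.15).

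**Figure D2:**
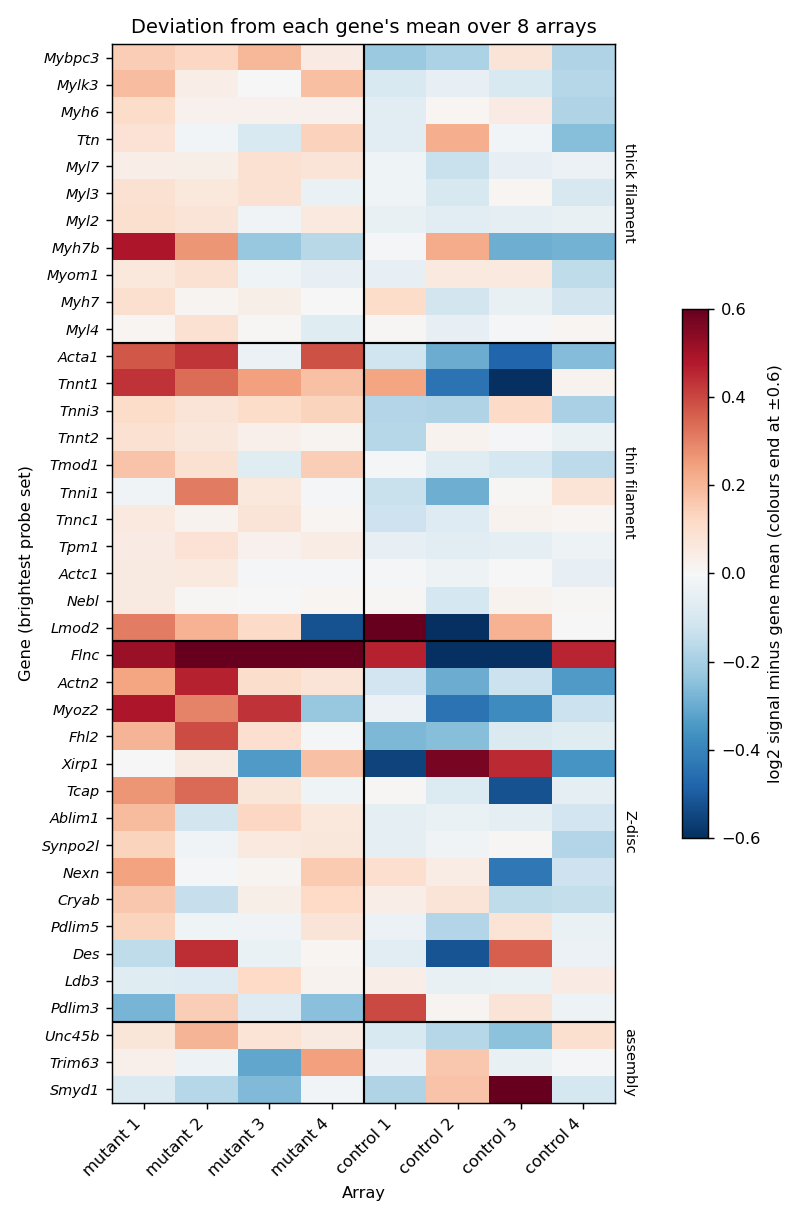
Deviation of the log2 signal of each tested member (rows, brightest probe set, by class and change) from its own mean over 8 arrays (columns, mutants left). Red is above and blue below the mean, with colours ending at 0.6 on either side. The mutant columns are mainly red in the thick filament, thin filament and Z-disc rows, most so in mutants 1 and 2, and the rows of Flnc, Lmod2, Tnnt1 and Xirp1 hold the widest spread between arrays.

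The members did not vary evenly across the pools. Of 39 tested members, 33 had their highest value on a mutant array and 34 their lowest on a control array. The same count was not made over all tested probe sets, so it cannot be read as a trait of the members. Mutant 1 held the highest value for 14 members and mutant 2 for 12, while mutant 3 held it for 5 and mutant 4 for 2. The lowest value fell on control 2 for 11 members, on control 4 for 11, on control 3 for 7 and on control 1 for 5. Averaged over the members, the deviation from each gene's mean was 0.13, 0.13, 0.04 and 0.04 in mutants 1 to 4, against -0.02, -0.16, -0.08 and -0.08 in controls 1 to 4. Mutants 3 and 4 thus lay closer to control 1 than to mutants 1 and 2 by this average, but not by the median deviation. The medians were 0.10, 0.08, 0.03 and 0.04 in mutants 1 to 4, against -0.04, -0.07, -0.04 and -0.07 in controls 1 to 4.

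By class, the thick filament average was 0.13, 0.07, 0.01 and 0.02 in mutants 1 to 4, against -0.04, -0.02, -0.03 and -0.14 in controls 1 to 4. For the thin filament it was 0.15, 0.15, 0.05 and 0.03 in the mutants, against 0.01, -0.23, -0.12 and -0.05 in the controls. The Z-disc average was 0.15, 0.18, 0.10 and 0.06 in the mutants, against -0.01, -0.26, -0.14 and -0.08 in the controls. In these 3 classes each mutant array lay above each control array, control 2 being lowest in the thin filament and Z-disc and control 4 in the thick filament. The Z-disc average of control 2 includes its low Flnc value of 5.86. By the median deviation, control 4 was lowest at the Z-disc, with -0.09 against -0.06 in control 2. Over the 3 assembly genes the average was 0.01, -0.00, -0.16 and 0.09 in the mutants, against -0.10, 0.05, 0.12 and -0.01 in the controls, with no separation.

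**Figure D3:**
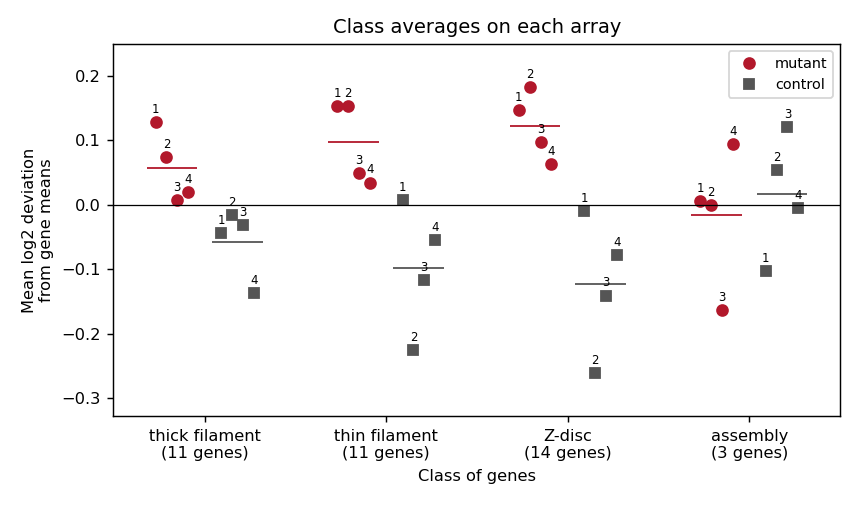
Mean log2 deviation of the tested members from their own gene means, for each array (points, numbered by replicate) and class, mutants in red circles and controls in grey squares, with horizontal lines at group means. Mutant and control arrays separate in the thick filament, thin filament and Z-disc classes and mix among the 3 assembly genes.

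Several probe sets per gene allowed a check within the same RNA. The 41 genes had 83 probe sets, of which 74 were tested, 39 brightest and 35 dimmer ones. Of the 35 dimmer probe sets, 26 had positive and 9 negative changes, with a median of 0.15. At an unadjusted p under 0.05 there were 7 positive and 0 negative, against 7.31% and 5.33% of all tested probe sets. The smallest adjusted p in limma was 0.245. Probe sets of 1 gene share their RNA and are not replicates. Of 15 genes with several tested probe sets, all agreed in sign for 7, and at least 1 disagreed for 8.

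Ttn had 6 tested probe sets, all positive, with a change of 0.11 on the brightest and from 0.17 to 0.37 on the others. The other genes in full agreement were Myh6, Myl3, Tnnt2, Ablim1, Cryab and Ldb3. On a dimmer probe set, Cryab, a small heat shock protein of muscle and lens, had a change of 0.21 and Pdlim5 one of 0.25, each above that of the brightest. Tpm1 transcripts are spliced into muscle and nonmuscle forms, and its probe sets had changes of 0.09, -0.13 and 0.23, which differ in sign. Synpo2l probe sets ranged from -0.49 to 0.21, Pdlim5 from -0.27 to 0.25 and Smyd1 from -0.12 to 0.72. None of these single probe sets passed the threshold.

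**Figure D4:**
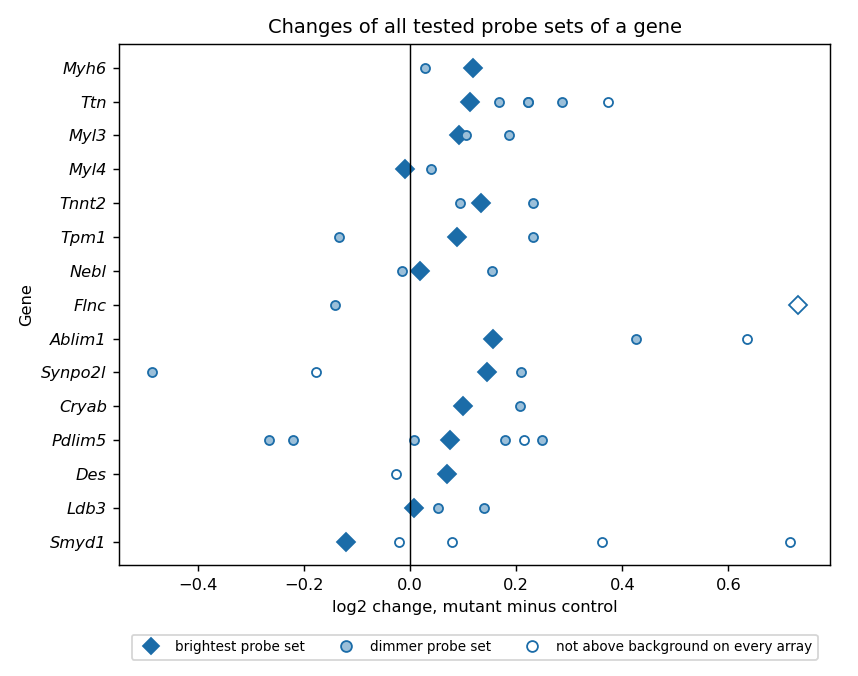
Log2 changes, mutant minus control, of every tested probe set of the 15 members with more than 1. Diamonds are the brightest and circles the dimmer probe sets, and open symbols were not above background on every array. Ttn points all lie to the right of 0, while those of Pdlim5, Synpo2l, Tpm1 and Flnc lie on both sides.

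Further sarcomere genes outside the member list also had mostly positive changes. Of 50 listed, 48 had a probe set and 31 were tested, with 24 positive changes, a median of 0.10 and 0 past the threshold. The count at an unadjusted p under 0.05 was 3 positive and 1 negative of 31, against 7.31% and 5.33% of all tested probe sets. Among all tested probe sets, 53.8% had positive changes. Csrp3, the muscle LIM protein of the Z-disc, had a change of 0.18, the small heat shock protein Hspb1 of 0.32, beta-tropomyosin Tpm2 of 0.32 and the actin-capping subunit Capza2 of -0.18. Myh3, Myh8, Mylk2 and Klhl40, all of skeletal muscle, were above background on 0 arrays.

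Transcription factors that regulate muscle genes were split in sign. Of 15 tested, 7 had positive and 8 negative changes, with 0 past the threshold and a median of -0.02, which was 0.01 with the authors' scaling. The smallest p belonged to Tbx5, a T-box factor of atrium and canal (0.26, SE 0.06, limma adjusted p = 0.141), and to the homeodomain-only protein Hopx (0.33). Nkx2-5, a cardiac homeobox factor, was above background on 1 of 4 controls, so no size is given, and Hand1, a helix-loop-helix factor, had a change of -0.28.

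Cardiomyocyte genes outside the sarcomere had a larger median change than the sarcomere genes, and the difference between these lists was not tested. Of 18 tested, 17 had positive changes, the median was 0.24, and 1 was past the threshold. That gene was Ankrd1, a muscle ankyrin repeat protein that binds titin (0.37, SE 0.06, limma adjusted p = 0.0269). Casq2, the calcium buffer of the sarcoplasmic reticulum, had a change of 0.69, the potassium channel Kcnj3 of 0.57 and Smpx, a small muscle protein, of 0.18. At an unadjusted p under 0.05, 11 of 18 were positive and 0 negative, against 7.31% and 5.33% of all tested probe sets.

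Among the markers of other cell types in the canal, 1 gene passed the threshold, the endothelial Tek. Cushion mesenchyme markers had 11 of 14 negative changes, a median of -0.35 and 0 past the threshold, with Sox9 (-0.54), Foxc2 (-0.61), Pdgfra (-0.73) and Hapln1 (-0.16) at the smallest p. With arrays centred on their median, 6 of 14 lay above the shift of all probe sets. Their summed deposited signal ranged from 40890 to 50376 in the mutants and from 46372 to 55437 in the controls. The summed signal of the 41 sarcomere genes with a probe set was 285539 to 314410 in the mutants and 230826 to 277340 in the controls. That of the cardiomyocyte genes outside the sarcomere was 72516 to 75907 in the mutants and 53388 to 65726 in the controls. The factors that regulate muscle genes, with a median change of -0.02, also separated, at 62458 to 64948 against 52469 to 61827. Separate sums were thus not limited to lists with mostly positive changes. The median deposited signal was 268 and 254 on controls 2 and 3, against 71.5 to 125 on the other arrays. The part of the marker lists in the values of the sarcomere genes was not tested.

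Epicardial markers had 8 of 8 positive changes with a median of 0.54, led by Krt18 (0.85), Tbx18 (0.56), Wt1 (0.51) and Bnc1 (0.64), and 0 passed. Their summed signal was 7469 to 11786 in the mutants and 6253 to 6908 in the controls. Endothelial markers had 10 of 14 positive changes, against 53.8% of all tested probe sets, and a median of 0.32. That median was 0.12 with the authors' scaling. With arrays centred on their median, 7 of 14 lay above the shift of all probe sets. Of the 15 with a probe set, 7 were above background on all 8 arrays. The 1 past the threshold was Tek, the Tie2 receptor, which fell by 0.72 on the log2 scale. Npr3 had a change of -0.56 and Emcn of 0.59, and Tie1 (1.26) was above background on 2 of 4 controls. Endothelial sums were 9922 to 11717 in the mutants and 12097 to 13262 in the controls, so that the sum and the median differ in direction. Tek was the brightest gene of that list, with mean log2 signals of 11.83 in the mutants and 12.53 in the controls, and weighs most in these sums. Smooth muscle markers had 5 of 5 positive changes with a median of 0.16, with Myl9 at 0.26, Tagln at 0.16, Cnn1 at 0.23 and Acta2 at 0.05. Their sums were 28892 to 31925 in the mutants and 21982 to 26997 in the controls. Erythroid markers had 1 of 8 positive and a median of -0.20, with Epor at -1.28, Alas2 at -0.66, Rhag at -0.64 and Hbb-y at -0.05. Hba-a1 was above background on 0 arrays, and the sums were 38333 to 49020 in the mutants and 32660 to 51596 in the controls. Of 9 skeletal muscle markers, including the factors Myod1 and Myog, 0 passed the filter and 0 were above background on all 8 arrays. Myod1, singled out after its values were seen, was above background on 0 mutant and 3 control arrays, and its mutant signals all lay below its control signals. The sums of the list were 88.5 to 314 in the mutants and 406 to 1605 in the controls. They come mostly from signals not above background, and the bacterial control signal was highest on controls 2 and 3. The part of these lists in the result was not tested either.

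**Figure D5:**
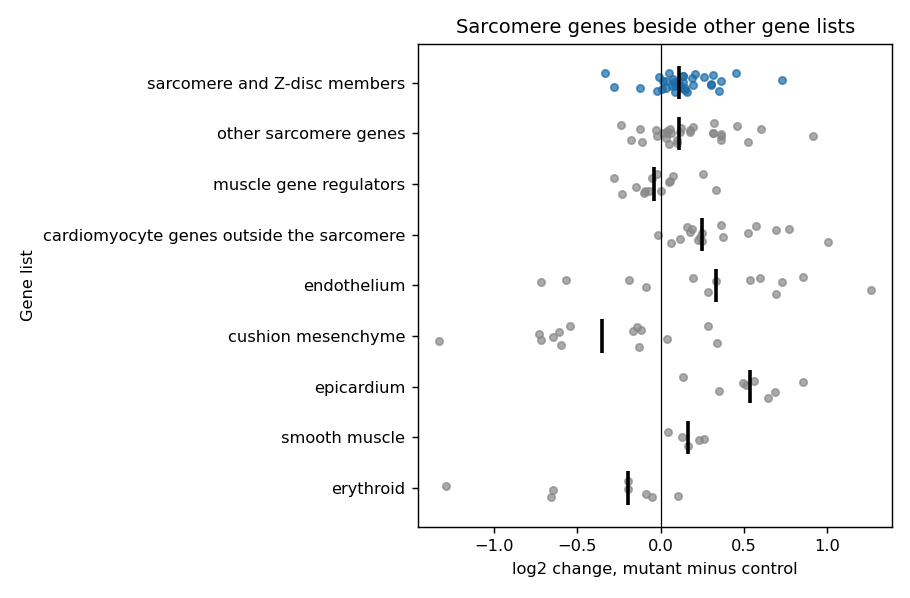
Log2 changes, mutant minus control, of the tested sarcomere and Z-disc members (blue, top row) and of the other gene lists (grey), 1 point per gene at its brightest probe set, with black bars at the medians of the genes drawn. Genes of the grey lists that cleared the background on 1 or 0 arrays of a group are not drawn. Cushion mesenchyme points lie mostly to the left of 0, and sarcomere, other cardiomyocyte, smooth muscle and epicardial points mostly to the right.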

How the data were processed

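The authors deposited linear intensity values of probe sets, which MAS5 made per the submitters' processing notes, on Affymetrix Mouse 430 2.0 arrays hybridized with amplified RNA (50 ng of total RNA per pool, per the labels). The table holds no detection calls, and the MAS5 version is not given in the sources. Signals were taken as log2(signal + 16), which understates changes of dim genes, and quantile normalized, and the dimmest 40% by mean signal were left out. Above background means over the 90th percentile of the array's own 27 bacterial control probe sets. Groups were compared with limma 3.58.1 in R 4.3.3, with array weights and trended, robust eBayes, two-sided, and p-values were Benjamini-Hochberg adjusted over 27022 probe sets (threshold 0.05). The number of arrays limits the precision. The fit was tested on simulated data.

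Names came from the platform annotation. Of 34958 probe sets with 1 symbol, 34754 matched RefSeq (GRCm38.p6) by Entrez ID. Another 932 had several symbols and 9211 none. Values on every array are given for the 4 smallest p of each structural class and 2 of the assembly class, the largest positive and negative change of each class among members above background on at least 2 arrays of each group, members past the threshold, and 12 genes fixed whatever their p. Other lists are named by their 4 smallest p, with exceptions for the targeted gene and for genes above background on 0 arrays, and no change is printed for a gene above background on 1 or 0 arrays of a group. Members, lists and rules were chosen with earlier results of these data known. Same-numbered samples did not deviate together, with correlations of -0.127 to 0.169, so they were not treated as pairs.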

Additional observations from a re-analysis of the deposited data

Results flagged for a closer look

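In 78 groups of 4 arrays and 10 groups of isoform ratios, an array was looked for whose gap to the next value took up nearly the whole range of its group. Chance gives about 1 in 20 such groups, and 8 were found. Control 3 stood apart in 3 genes, with 12.37 for Mybpc3 (other controls 12.07 to 12.11), 12.02 for Tnni3 (11.71 to 11.73) and 9.09 for Tcap (9.53 to 9.62). Control 2 stood apart with 13.54 for Nebl (13.65 to 13.67) and 10.82 for Trim63 (10.61 to 10.65). Among mutants, mutant 1 had 13.83 for Myh6 (13.75 on the other 3), and mutant 3 had 10.24 for Acta1 (10.65 to 10.71), which also set its log2 ratio of Acta1 to Actc1 at -3.75 (-3.40 to -3.32).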

How the results depend on the processing

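With all 8 arrays, 0 members passed the threshold under each alternative other than centring arrays on their median, a scaling that shifted all probe sets by 1.13. It put 39 members higher (64.1% of all probe sets), with 39 higher and 0 lower at an unadjusted p under 0.05 (65.3% and 7.39%), and 17318 probe sets higher and 1833 lower. Relative to that shift the median of the members was 0.60, Myl4 stood at 0.49 and Pdlim3 at 0.079. The authors' scaling gave 41 probe sets higher and 22 lower, a members' median of 0.19, Myl4 at 0.038 and the Myh6 to Myh7 difference at -0.00059. Probe sets past the threshold numbered 22 higher and 12 lower with a pseudocount of 64, 14 and 12 without the filter, 13 and 10 with a filter on detection, and 2 and 2 with the mean 3 prime to 5 prime ratio as covariate, where Myh7 was at -0.028 and Smyd1 at 0.032. Without array weights 10 were lower, Myl4 was at 0.018 and Lmod2 at 0.053. Without controls 2 and 3 there were 1 higher and 1 lower, with or without weights. With weights 9 members were higher at an unadjusted p under 0.05 and Smyd1 was at 0.0025. Without weights Myl4 was at 0.00017, Smyd1 at 0.0074 and the Myl7 to Myl2 difference at -0.0055. The 1 member lower at an unadjusted p under 0.05 became 0 without controls 2 and 3, without the filter, without weights and with the replicate block.

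The replicate block gave 26 probe sets higher and 34 lower, with 17 members higher and 0 lower at an unadjusted p under 0.05 (5.78% and 4.77% of all probe sets), and 0 members past the threshold. The samples share only a number, and 0 of 4 numbers correlated best with their own. Leaving out each array in turn gave 3 to 1417 probe sets higher and 2 to 371 lower, the most without control 1 (1417 and 263) and control 4 (1291 and 371). Members past the threshold were 0 to 2 higher (Tnnt1 and Flnc without control 1, against 5.24% of all probe sets, Mybpc3 without control 3, against 0.329%, and Flnc without control 4, against 4.78%). At an unadjusted p under 0.05 there were 6 to 15 higher and 0 to 1 lower, with 6 without control 1 (17.3% of all probe sets) and 7 without control 4 (16.6%). Changes then ranged from -0.023 to 0.024 for Myl4, -0.46 to 0.13 for Lmod2, -0.49 to 0.0022 for Smyd1, -0.016 to 0.11 for Myh7 and -0.026 to 0.18 for Ttn. Differences ranged from -0.037 to 0.060 for Myh6 to Myh7, -0.017 to 0.040 for Myl7 to Myl2 and -0.035 to 0.13 for Tnni3 to Tnni1. Without controls 1 and 4, chosen after seeing the data, 4200 probe sets were higher and 2278 lower (15.5% and 8.43%). Then 5 members higher (Myl7, Tnnt1, Acta1, Actn2, Flnc) and 1 lower (Smyd1) passed, with 12 higher and 2 lower at an unadjusted p under 0.05 (22.8% and 15.1%), Myl4 at 0.033, Ttn at -0.073 and Lmod2 at 0.38. With the median over a gene's probe sets, Myl4 was at 0.015, Synpo2l at -0.017 and Smyd1 at 0.079, and with the probe set of smallest p Smyd1 was at 0.72. The cause of these differences was not tested. Raised background on controls 2 and 3 limits what dim genes such as Flnc can show.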
